A study of Saccharomyces cerevisiae with 12 samples.

Results

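Growth of diploid budding yeast in salt was set directly against growth on glycerol, with 4 of the 12 RNA sequencing libraries of the series. These are the 2 libraries from synthetic complete medium (SC) with glucose and 40 g/l of NaCl and the 2 libraries from YPG, a rich medium with 3% glycerol in place of glucose, all from cultures kept at 30°C. Of 7127 gene identifiers in the deposited table, the 6113 with a mean count of at least 10 over these 4 libraries were compared. The series measured transcripts of strain BY4743 in 6 environments, with 2 independently started cultures in each. BY4743 is a diploid laboratory strain in which both copies of *URA3*, *LEU2* and *HIS3* carry deletions and *LYS2* and *MET17* are each left with a single working copy, and this holds for every group. A glucose culture in the same kind of medium was used beside each of the pair: SC at 30°C for SC with NaCl, and YPD (rich medium with glucose) at 32°C for YPG, each with 2 libraries. YPD was thus 2°C warmer than YPG. All cultures were small volumes in titration plates harvested late in growth. In the labels the medium of the YPG cultures is entered as YPD although the titles say YPG, as do the methods, and they were treated as YPG. SC with NaCl and YPG differ in base medium, carbon source and salt at once, so these 3 factors cannot be told apart in the direct comparison, and neither can differences in how far each culture had grown.

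Yeast takes up glucose by preference and, while glucose lasts, keeps genes for the use of other carbon sources repressed. When only nonfermentable carbon such as glycerol, ethanol or acetate is left, the cell respires it and builds sugar phosphates from it through gluconeogenesis and the glyoxylate cycle, under the activators Cat8, Sip4, Adr1 and Hap4. High salt acts on yeast as osmotic stress and sodium toxicity. The cell answers it through the kinase Hog1 and the general stress factors Msn2 and Msn4 by making and retaining glycerol, exporting sodium and raising protective proteins, and slow growth is known to lower transcripts of the ribosome.

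The pair was picked as 2 environments at the same temperature where the genes of gluconeogenesis are on. Their being on in both is therefore not a finding, and the values below describe their levels. *PCK1* (phosphoenolpyruvate carboxykinase, the first committed step of gluconeogenesis; chromosome XI, 631152 to 632801 of build R64) had 72849 and 76063 counts in SC with NaCl, 52320 and 48440 in YPG, 167 and 138 in SC and 165 and 162 in YPD at 32°C. *ICL1* (isocitrate lyase of the glyoxylate cycle) had 26469 and 34543 counts in SC with NaCl, 17704 and 18435 in YPG, 826 and 883 in SC and 1139 and 1096 in YPD. No salt or glycerol library overlapped with a glucose library for either gene. Relative to YPG, *PCK1* was higher with NaCl by 0.56 ± 0.11 log2 units (SE; adjusted p = 2.4e-04) and *ICL1* by 0.74 ± 0.11 (adjusted p = 1.5e-05), and the 95% confidence intervals of both lay within a 2-fold difference. Differences are on the scale of log2(count + 1), and adjusted p-values come from limma with Benjamini-Hochberg adjustment over all 6113 genes, with 0.05 as the threshold for a call. *FBP1* (fructose-1,6-bisphosphatase) had 16304 and 19147 counts with NaCl and 6659 and 6501 in YPG, and *MLS1* (malate synthase) had 81235 and 70551 with NaCl and 21849 and 23569 in YPG. Both were past the threshold, at 1.43 ± 0.15 and 1.74 ± 0.14 log2 higher with NaCl.

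The promoters of these genes are the known targets of Cat8 and Sip4, which bind the carbon source responsive element. Its core, which has fixed bases at both ends and free bases between them, was searched on both strands in the 600 bases before the annotated start of each gene in the R64 reference of RefSeq. It occurred in 14 of the 19 genes of a list of gluconeogenesis and the glyoxylate cycle (73.7%), against 24.7% of 5986 promoters of nuclear protein-coding genes. The lines that follow show 60 bases of 4 of these promoters, written 5′ to 3′ along the gene, with the matches in capitals; where matches overlap they run together. A match is a description of the letters and not evidence of binding. The same core occurred in 44.4% of 27 promoters of osmotic and general stress genes and in 37% of 135 promoters of cytosolic ribosomal protein genes. *JEN1*, a gene taken up below, had no match.
*PCK1*, chrXI:630765-630824, plus strand: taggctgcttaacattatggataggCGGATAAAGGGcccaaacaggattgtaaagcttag
*FBP1*, chrXII:875190-875249, minus strand: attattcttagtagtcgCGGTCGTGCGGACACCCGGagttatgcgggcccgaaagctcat
*ICL1*, chrV:287278-287337, minus strand: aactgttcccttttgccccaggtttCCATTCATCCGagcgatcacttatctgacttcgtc
*MLS1*, chrXIV:405892-405951, plus strand: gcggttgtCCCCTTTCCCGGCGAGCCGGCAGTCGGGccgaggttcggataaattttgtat

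The authors' software estimated the counts and brought every library to a like total, which was between 14012953 and 14144527 in the 4 libraries. The step between low values puts the counted read pairs at 14600000 and 15100000 for SC with NaCl and at 12800000 and 12400000 for YPG. Across the tested genes, which are not independent replicates, the 2 replicates correlated at r = 0.987 in SC with NaCl and 0.992 in YPG, with a median absolute difference of 0.22 and 0.11 log2 units. The NaCl cultures were thus the more variable pair. The 50 most abundant identifiers took 25.3% and 22.6% of the counts with NaCl and 16% and 15.2% in YPG. A count here is a share of the sequenced RNA, so less of a transcript in every cell and fewer cells making it cannot be told apart. *URA3* and *LEU2* were at 0 in all 4 libraries, as the deletions of the strain require, while *HIS3*, of which the strain carries a partial deletion, had 231 and 284 counts with NaCl and 845 and 812 in YPG. A list of 19 haploid-specific and mating-type genes held at most 0.0437% of the counts of a library. Their median count was 155 and 199 with NaCl and 98.8 and 106 in YPG. Over all tested genes the medians were 810 and 946 with NaCl and 869 and 910 in YPG. The list was not uniform. *MFA1* and *MFA2* were at 0 in all 4 libraries. By contrast, *RME1* had 1524 and 1319 counts with NaCl and 251 and 223 in YPG, and *SAG1* had 1024 and 1203 with NaCl and 621 and 587 in YPG.

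Salt and glycerol gave widely different transcript profiles. Of the 6113 genes, 4960 (81.1%) passed the test between SC with NaCl and YPG, 2419 of them higher (39.6%) and 2541 lower (41.6%) with NaCl. A difference of at least 1 log2 unit was reached by 1473 of the higher genes (24.1% of those tested) and by 1552 of the lower ones (25.4%). The median over all tested genes was -0.03, with quartiles at -1.03 and 0.95, and the 95% interval of a single gene had a median half-width of 0.26 log2 units. For 2256 genes (36.9%) this interval lay wholly within a 2-fold difference, and these are called alike below; 1282 of them also passed the test, so that alike means close and not equal. For 179 genes (2.93%) neither statement held.

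Each environment was also read against its own glucose culture, in comparisons that use no library in common. Of the 6113 genes, 4947 (80.9%) differed between SC with NaCl and SC, with 2090 higher (34.2%) and 2857 lower (46.7%). Between YPG and YPD at 32°C 3861 (63.2%) differed, with 1642 higher (26.9%) and 2219 lower (36.3%). Both comparisons gave a rise for 712 genes (11.6%) and a fall for 1183 genes (19.4%), of which 309 (5.05% of all tested) and 616 (10.1%) were also alike in the pair. The shared rises made up 34.1% of all rises with NaCl, against 26.9% of all genes that rose with glycerol, and 43.4% of all rises with glycerol, against 34.2% of all genes that rose with NaCl. The shared falls made up 41.4% of the falls with NaCl, against 36.3% of all genes that fell with glycerol, and 53.3% of the falls with glycerol, against 46.7% of all genes that fell with NaCl. The directions were opposite for 688 genes that were higher with NaCl and lower with glycerol (11.3%) and for 700 genes with the reverse pattern (11.5%). Across all 6113 genes the 2 changes correlated at r = 0.26, given as a description. A test of the difference between the 2 changes passed for 4468 of all 6113 genes (73.1%). Of the 712 shared rises it passed for 469 (7.67% of all tested), with the larger rise under NaCl in 354 (5.79%) and under glycerol in 115 (1.88%). The same test passed for 744 of the 1183 shared falls (12.2%), with the larger fall under NaCl in 573 (9.37%) and under glycerol in 171 (2.8%). The base media themselves differed at 2324 genes (38%) between SC and YPD at 32°C. This step is a term of the direct comparison, and it also sets the level from which each of the 2 changes is measured. How far it shapes the changes was not tested.

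**Figure D1:**
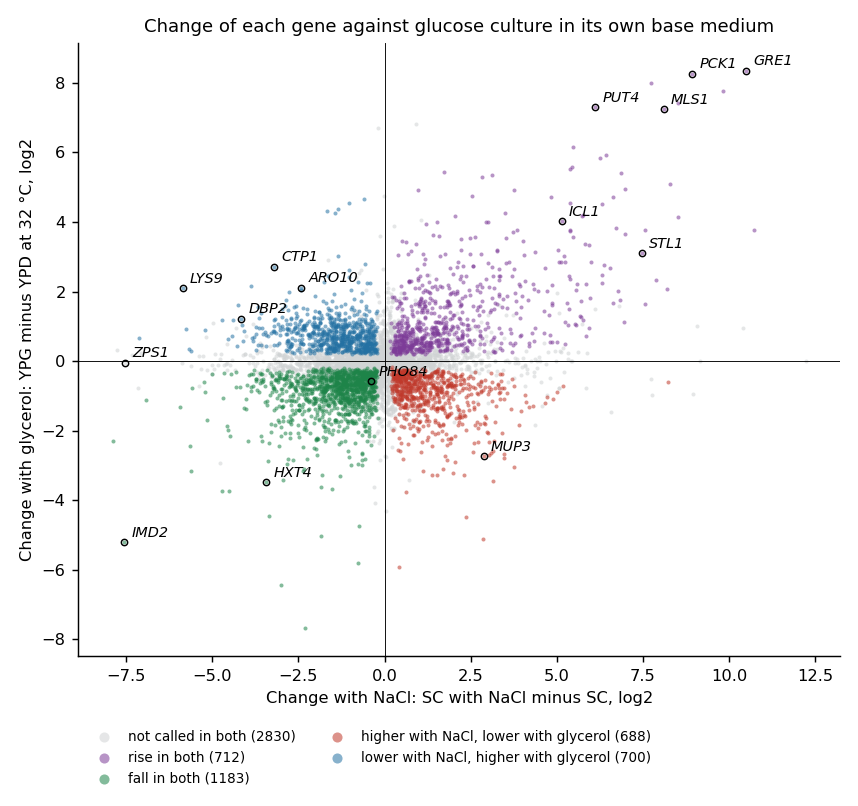
Change of each of the 6113 genes with NaCl (SC with NaCl minus SC, log2, horizontal axis) and with glycerol (YPG minus YPD at 32°C, log2, vertical axis), 1 point per gene, coloured by whether both changes passed the threshold and in which directions. The 712 shared rises fill the upper right part of the plot, with *GRE1* and *PCK1* at its far end, and the 700 genes in the upper left, among them *DBP2* and *LYS9*, moved in opposite directions.

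Stress and gluconeogenic genes were both among the largest shared rises. The pair was picked with the gluconeogenic genes on, so that their place here is not a finding. Ranked by the smaller of the 2 changes, the first 10 were *GRE1*, *PCK1*, *SIP18*, *DPA10*, *SFC1*, *MLS1*, *PUT4*, *ECM13*, *FMP16* and *JEN1*. *JEN1* (the lactate and pyruvate transporter) had 32537 and 35720 counts with NaCl, 22439 and 23588 in YPG, 719 and 811 in SC and 350 and 295 in YPD. *PUT4* (the proline permease) had 22804 and 28039 with NaCl, 14391 and 14329 in YPG, 380 and 353 in SC and 83.6 and 98.5 in YPD. The salt and glycerol libraries lay far above the glucose libraries for both *JEN1* and *PUT4*, and they differed by 0.57 ± 0.11 and 0.82 ± 0.12 log2, higher with NaCl. *NRG1* (a repressor of glucose-repressed genes), *NCA3* (a protein of the wall-associated SUN family), *AQY1* (the spore water channel), *CAR2* (ornithine transaminase) and *AGX1* (alanine glyoxylate transaminase) rose in both and were alike. *AQY1* had 1222 and 1685 counts with NaCl and 1250 and 1564 in YPG, against 140 and 157 in SC and 169 and 143 in YPD, and its salt and glycerol libraries overlapped (0.04 ± 0.24, 95% interval -0.47 to 0.55).

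Of the 20 glycolytic genes listed, 18 were among the shared falls, against 19.4% of all genes. *HXT4* (a glucose transporter) had 509 and 524 counts with NaCl, 510 and 464 in YPG, 5853 and 5366 in SC and 5319 and 5562 in YPD. It was alike in the pair, with an interval of -0.10 to 0.27 log2. *IMD2* (IMP dehydrogenase, the committed step to guanine nucleotides) led the list by the smaller change, with 40.7 and 40.2 counts with NaCl, 247 and 195 in YPG, 7461 and 8149 in SC and 7873 and 8451 in YPD. Here the fall was deeper with salt, at -2.41 ± 0.10 log2 in the direct comparison (adjusted p = 1.8e-11). The purine genes *ADE17* and *ADE13*, the histone H4 gene *HHF2*, *GND1* of the pentose phosphate pathway and the glycolytic genes *TPI1* and *TDH2* fell in both and were alike.

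The whole gluconeogenic list leaned towards salt. All 19 members were tested, and 18 were higher and 1 was lower with NaCl than in YPG (94.7% and 5.26%, against 39.6% and 41.6% of all genes), with a median of 1.62 log2. Against glucose 16 rose in both environments, against 11.6% of all genes. The pair was picked because these genes are on in it. In the pair 4 members were alike, against 36.9% of all genes. The list took 2.86% and 2.83% of the counts with NaCl, 1.26% and 1.26% in YPG, 0.145% and 0.152% in SC and 0.155% and 0.149% in YPD. *CAT8*, which encodes the activator itself, had 5386 and 5221 counts with NaCl, 770 and 677 in YPG, 414 and 418 in SC and 403 and 416 in YPD, so that its level in YPG was less than 2-fold above that on glucose. *SIP4* and *ADR1* showed the same order, with 2.83 ± 0.18 and 2.73 ± 0.10 log2 more with NaCl. The widest gap in the list was at the acetate end of the pathway. *ACS1* (acetyl-CoA synthetase) had 52417 and 39459 counts with NaCl, 1202 and 1414 in YPG, 396 and 429 in SC and 301 and 345 in YPD, a difference of 5.12 ± 0.14 log2 (adjusted p = 1.9e-13), and *ADY2* (the acetate transporter) was 3.90 ± 0.20 higher. The single member lower with NaCl was *PYC2*, 1 of the 2 pyruvate carboxylases, at -1.54 ± 0.07, while its partner *PYC1* was 0.55 ± 0.09 higher and alike.

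**Figure D2:**
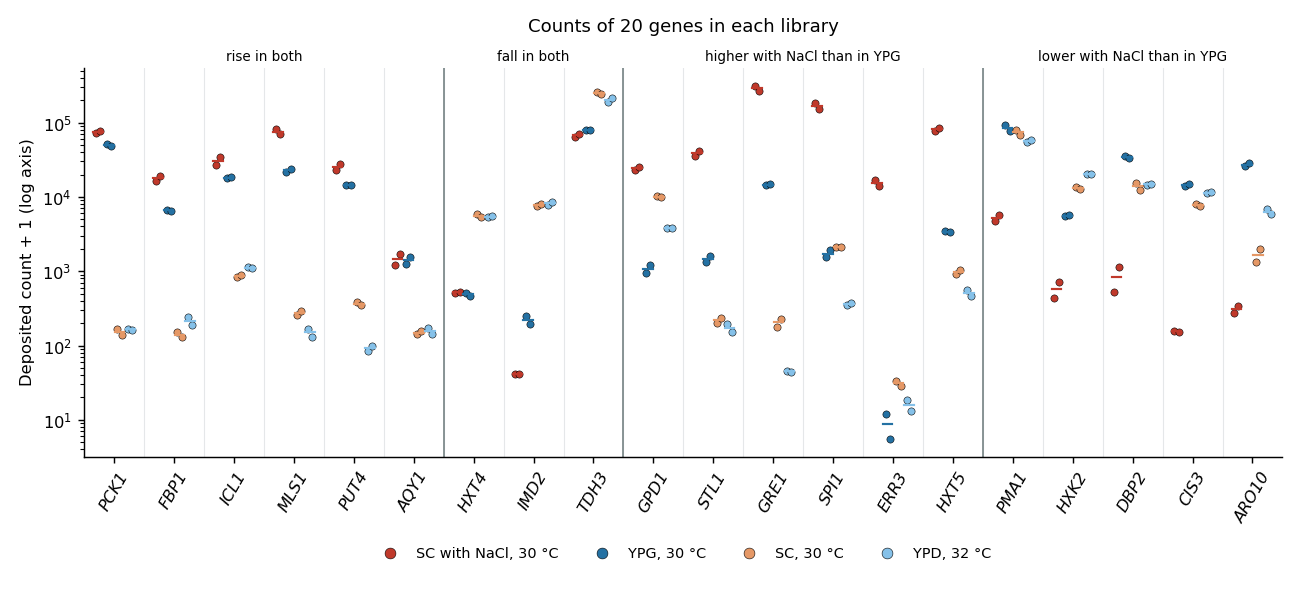
Counts plus 1 of 20 genes on a log axis, 2 points per environment with their mean as a line, in the order SC with NaCl, YPG, SC and YPD at 32°C. *PCK1* to *AQY1* stand high in both SC with NaCl and YPG, *HXT4* to *TDH3* stand low in both, and the other 11 genes separate the pair.

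Genes for glycerol itself were mostly higher with salt. In salt yeast makes and imports glycerol as an osmolyte, while in YPG glycerol is the food. *GPD1* (the glycerol 3-phosphate dehydrogenase that makes glycerol under osmotic stress) had 23354 and 25552 counts with NaCl, 947 and 1224 in YPG, 10342 and 9867 in SC and 3822 and 3856 in YPD. It thus rose with NaCl and fell with glycerol, and the direct difference was 4.50 ± 0.13 log2 (adjusted p = 3.6e-13). *STL1* (the proton symporter that imports glycerol) had 35223 and 42072 counts with NaCl, 1330 and 1613 in YPG, 202 and 234 in SC and 195 and 149 in YPD, which is a rise in both and 4.71 ± 0.16 log2 more with NaCl. The enzymes that burn glycerol were also higher in salt than on glycerol: *GUT1* (glycerol kinase) had 7326 and 8189 counts with NaCl and 2817 and 3234 in YPG, and *GUT2* (the mitochondrial glycerol 3-phosphate dehydrogenase) had 7481 and 7364 with NaCl and 2897 and 2940 in YPG. Both passed the test, at 1.36 ± 0.09 and 1.35 ± 0.09. *FPS1* (the channel that lets glycerol out) was lower with NaCl, at -0.96 ± 0.09. Of the 15 glycerol genes, 11 were higher (73.3%) and 3 lower (20%), against 39.6% and 41.6% of all genes. The remaining 1, the glycerol phosphatase *GPP1*, was not called. Without NaCl replicate 1, *GPP1* was called at 0.45 log2 higher.

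Of 31 gene lists, the general stress genes had the highest median difference. Of 27 osmotic and general stress targets, 26 were higher with NaCl (96.3%, against 39.6% of all genes) and 1 was lower. Their median was 3.96 log2, against -0.03 over all genes. They took 9.68% and 8.39% of all counts with NaCl, against 0.823% and 0.885% in YPG, 0.657% and 0.724% in SC and 0.359% and 0.318% in YPD. *GRE1* (a hydrophilin, a small very hydrophilic protein induced by water loss) was the most abundant transcript with NaCl per length as well as by count. It had 314596 and 267825 counts with NaCl, 14395 and 14943 in YPG, 178 and 228 in SC and 44.7 and 43.1 in YPD, or 42456 and 36144 FPKM (the authors' value adjusted for gene length and depth) with NaCl. It was therefore a shared rise and, at 4.31 ± 0.20 log2, a separating gene at once. *SPI1* (a wall protein of stationary cells) had 184958 and 153574 counts with NaCl, 1538 and 1911 in YPG, 2113 and 2097 in SC and 345 and 375 in YPD, a difference of 6.62 ± 0.14 log2. *CTT1* (cytosolic catalase) was 5.36 ± 0.11 higher, *SIP18* (a second hydrophilin) 5.41 ± 0.33 and *HSP30* (a plasma membrane stress protein, of the chaperone list) 6.82 ± 0.20. *HSP26* and *HSP12*, genes of small heat shock proteins, rose against glucose in both environments. *HSP26* was 1.81 log2 higher with NaCl, and *HSP12* had 70243 and 61341 counts with NaCl, 15861 and 20429 in YPG, 7163 and 7911 in SC and 494 and 386 in YPD. The member that was lower with NaCl was the wall protein gene *CWP1*, at -1.19 ± 0.16.

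Stress genes of this kind are known targets of Msn2 and Msn4, which bind the stress response element with the core AGGGG. This core, on either strand, occurred in the 600-base promoters of 24 of the 27 listed genes (88.9%), against 39.7% of all promoters. It occurred at least 2 times in 70.4% of the list against 10.7% of all. In the gluconeogenic list, 63.2% of 19 promoters held the core and 21.1% held it at least 2 times. Among the 323 promoters of genes at least 3 log2 units higher with NaCl than in YPG, 73.1% held it. The windows below show 2 cores each, in capitals, in promoters of genes named above. *GRE1* had no match to AGGGG in its window.
*SIP18*, chrXIII:610619-610678, plus strand: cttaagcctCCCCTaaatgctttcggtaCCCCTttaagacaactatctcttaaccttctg
*CTT1*, chrVII:654243-654302, plus strand: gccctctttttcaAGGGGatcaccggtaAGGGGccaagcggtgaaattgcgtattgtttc
*SPI1*, chrV:468084-468143, plus strand: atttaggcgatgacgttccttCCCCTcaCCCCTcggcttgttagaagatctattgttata

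Of 24 genes of the upstream Hog1 pathway and the stress factors, 11 were higher (45.8%), 7 lower (29.2%) and 6 not called, against 39.6% higher and 41.6% lower of all genes, with a median of 0.09. *HOG1* had 1165 and 1420 counts with NaCl, 2901 and 2884 in YPG, 3940 and 3793 in SC and 4333 and 4068 in YPD, and was lower with NaCl than in YPG, at -1.17 ± 0.09 log2. *MSN4* had 8472 and 9076 with NaCl, 874 and 839 in YPG, 2974 and 2964 in SC and 2902 and 2955 in YPD, so it rose with NaCl and fell with glycerol. Among ion transporters, *ENA1* (the sodium pump of the plasma membrane) had 4302 and 4194 counts with NaCl, 1588 and 1759 in YPG, 543 and 608 in SC and 1121 and 1236 in YPD, and was 1.34 ± 0.11 higher with NaCl than in YPG. It shares reads with its near-identical neighbours *ENA2* and *ENA5*, so its own value is uncertain. The proton pump *PMA1*, which drives nutrient uptake, had 4790 and 5752 counts with NaCl, 92150 and 76753 in YPG, 80253 and 67900 in SC and 55469 and 57980 in YPD. Both salt libraries lay below all others, while those of YPG overlapped with SC, and the 95% interval in the pair was -4.28 to -3.73 log2 (adjusted p = 7.8e-13).

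Hexose transport genes were mostly higher with salt. Of 26 hexose transport and glucose sensing genes, 20 were higher with NaCl (76.9%, against 39.6% of all genes) and 3 lower (11.5%, against 41.6%). *HXT5*, a transporter of slow-growing cells, had 77425 and 84260 counts with NaCl, 3432 and 3355 in YPG, 923 and 1034 in SC and 554 and 458 in YPD. The glucose-induced transporters *HXT1* and *HXT3* fell against glucose in both environments but stayed 3.07 ± 0.16 and 2.48 ± 0.13 log2 higher with NaCl, in the medium made with glucose, than in YPG, and *HXT2* was lower, at -2.13 ± 0.14. The hexokinases split. *HXK2* had 440 and 708 counts with NaCl, 5490 and 5701 in YPG, 13462 and 12898 in SC and 20202 and 20502 in YPD, while *HXK1* was 3.54 ± 0.11 log2 higher with NaCl. The 20 glycolytic genes took 2.18% and 2.24% of the counts with NaCl and 2.15% and 2.14% in YPG, against 9.84% and 9.49% in SC and 6.6% and 7.31% in YPD, and 18 of them fell against glucose in both. Their median in the pair was -0.03, as over all genes, with 9 higher, 7 lower and 4 not called, or 45% and 35% against 39.6% and 41.6% of all genes. *TDH3* (glyceraldehyde 3-phosphate dehydrogenase) had 64892 and 69827 counts with NaCl and 79006 and 78726 in YPG and was alike (-0.23 ± 0.14), while the enolase *ENO2* was lower, at -2.37 ± 0.13. An enolase-related gene near the telomere, *ERR3*, had 16892 and 14102 counts with NaCl, 11 and 4.53 in YPG, 32.7 and 27.3 in SC and 17.5 and 12.2 in YPD, the second largest rise of all (10.89 ± 0.42). It has near-identical copies, between which reads may be split.

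Respiration took a near-equal share of the transcripts in the pair. The 41 nuclear genes of the respiratory chain and ATP synthase took 1.65% and 1.59% of the counts with NaCl, 1.64% and 1.66% in YPG, 0.781% and 0.762% in SC and 0.458% and 0.473% in YPD. Of these, 33 rose against glucose in both environments and 20 were alike, against 11.6% and 36.9% of all genes. In the pair 21 were higher (51.2%), 15 lower (36.6%) and 5 not called, against 39.6% higher and 41.6% lower of all genes. *ATP3* of the ATP synthase had 11812 and 11440 counts with NaCl and 11310 and 11810 in YPG, against 5146 and 5557 in SC and 2943 and 2860 in YPD. Its salt and glycerol libraries overlapped. *SDH1* (succinate dehydrogenase) and *COX5A* (a subunit of cytochrome oxidase) also overlapped between the pair. *HAP4*, the activator of these genes, had 26834 and 24019 counts with NaCl, 13329 and 13714 in YPG, 2314 and 2839 in SC and 2301 and 3086 in YPD.

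Within respiration, alternative forms of a subunit differed from each other. *COX5B*, the form of the subunit used at low oxygen, was 3.42 ± 0.09 log2 higher with NaCl, with 4444 and 3968 counts against 375 and 408 in YPG, while *COX5A* was not called. The cytochrome c gene *CYC7* was 5.63 ± 0.21 higher with NaCl, while the main form *CYC1* was lower, with 217 and 183 counts with NaCl and 981 and 948 in YPG (-2.27 ± 0.16). The external NADH dehydrogenases also lay on opposite sides, with *NDE2* 3.43 ± 0.17 higher and *NDE1* lower with NaCl, at -0.77 ± 0.12. In the TCA cycle, 13 of 20 genes rose in both, against 11.6% of all genes. *ACO1* (aconitase) had 113977 and 89241 counts with NaCl, 20812 and 22720 in YPG, 8473 and 8635 in SC and 5922 and 6078 in YPD. The peroxisomal citrate synthase *CIT2* and the mitochondrial *CIT1* were 3.77 ± 0.14 and 3.12 ± 0.09 higher with NaCl.

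Fatty acid oxidation, storage carbohydrates and protection from oxidants were higher with salt. Of 22 genes of fatty acid oxidation and the carnitine shuttle, 21 were higher with NaCl (95.5%, against 39.6% of all genes), with a median of 2.27 log2. *CTA1* (peroxisomal catalase) had 28084 and 23833 counts with NaCl, 531 and 598 in YPG, 424 and 463 in SC and 508 and 459 in YPD. The exception was *ANT1* (the peroxisomal ATP carrier), with 367 and 496 counts with NaCl and 4203 and 4523 in YPG. Of 19 trehalose and glycogen genes, 17 were higher (89.5%, against 39.6% of all genes) and 2, *PGM1* and *PIG1*, were not called. *TPS1* (trehalose phosphate synthase) had 16796 and 16359 counts with NaCl, 804 and 967 in YPG, 11423 and 11516 in SC and 6171 and 6171 in YPD, and thus rose with salt and fell with glycerol. *TSL1*, a regulatory subunit of the same complex, and *GLC3* (the glycogen branching enzyme) were 5.03 ± 0.13 and 4.78 ± 0.12 log2 higher with NaCl. Among 24 antioxidant genes 19 were higher (79.2%) and 4 lower (16.7%), against 39.6% and 41.6% of all genes. The copper zinc superoxide dismutase *SOD1* had 72123 and 65915 counts with NaCl and 7243 and 8754 in YPG.

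Most chaperones were higher with salt. Of 27, 20 were higher with NaCl (74.1%) and 6 lower (22.2%), against 39.6% and 41.6% of all genes, and 1, *SSA1*, was not called. The stress-induced *SSA3* had 109403 and 104637 counts with NaCl, 13087 and 13617 in YPG, 1017 and 1021 in SC and 929 and 955 in YPD, and *HSP42* and *SSE2* were 4.58 ± 0.18 and 4.30 ± 0.11 higher. The ribosome-bound chaperone gene *SSB1* went the other way, with 1252 and 1726 counts with NaCl, 46820 and 41571 in YPG, 22568 and 19953 in SC and 26997 and 28652 in YPD (-4.91 ± 0.13). Reads of *SSB1* and its near copy *SSB2*, which was also lower, at -2.86 ± 0.10, may be shared.

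**Figure D3:**
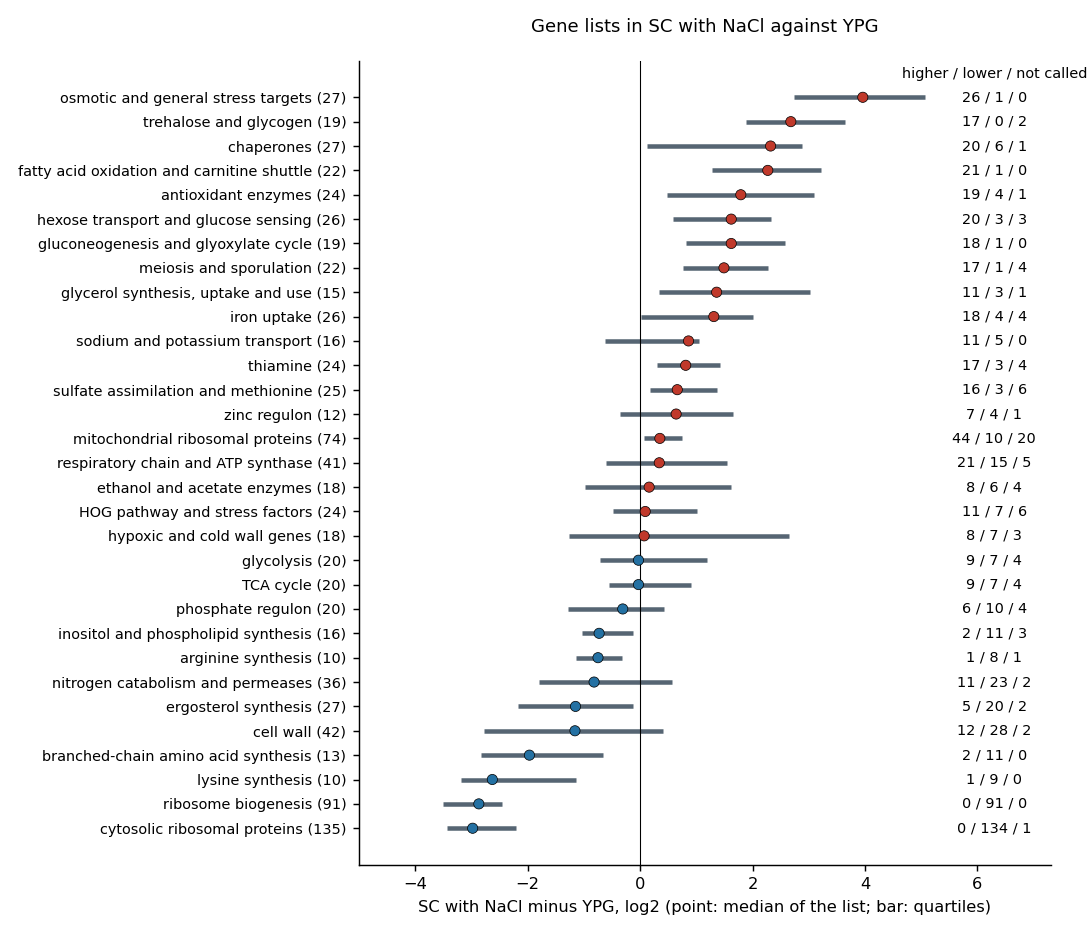
Median (point) and quartiles (bar) of the difference SC with NaCl minus YPG, log2, for 31 gene lists, with the number of genes tested in brackets and, at the right, how many were higher, lower or not called. Stress targets (median 3.96) stand at the top, ribosome biogenesis (-2.87) and cytosolic ribosomal proteins (-2.98) at the bottom, and glycolysis and the TCA cycle at -0.03.

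The lists of cytosolic ribosomal proteins and ribosome biogenesis had the lowest medians of the 31. Of 135 cytosolic ribosomal protein genes, 134 were lower with NaCl than in YPG (99.3%, against 41.6% of all genes) and none was higher. The remaining 1, *RPS25A* with 3655 and 3931 counts with NaCl and 3264 and 3938 in YPG, was not called. Their median was -2.98 log2, and together they took 1.57% and 1.71% of the counts with NaCl, 12.2% and 12.9% in YPG, 10.5% and 9.35% in SC and 14.7% and 15.6% in YPD. *RPS22A* had 304 and 294 counts with NaCl and 11705 and 11701 in YPG, and *RPL3* was lower with NaCl, at -4.19 ± 0.12. Many of these genes have a near-identical partner, so that the counts of single copies are less certain than the sum. The translation elongation factor *YEF3*, the most abundant transcript by count in YPG, had 8035 and 12662 counts with NaCl, 162115 and 139088 in YPG, 65730 and 55711 in SC and 67346 and 72108 in YPD.

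Ribosome biogenesis moved in opposite directions. All 91 genes of the list, which make and process ribosomal RNA and assemble the subunits, were lower with NaCl than in YPG. Of all genes 41.6% were. The median of the list was -2.87. Against their own glucose cultures, 90 were lower and 1, *REA1*, was higher with NaCl, while 91 of 91 were higher with glycerol, by a median of 1.00 log2. Over all genes 46.7% were lower with NaCl and 26.9% higher with glycerol. The list took 0.531% and 0.674% of the counts with NaCl, 5.04% and 4.96% in YPG, 2.13% and 2.12% in SC and 2.49% and 2.41% in YPD. *DBP2* (an RNA helicase) had 522 and 1126 counts with NaCl, 35145 and 33476 in YPG, 15234 and 12396 in SC and 14595 and 14912 in YPD. The NaCl replicates differed by about 2-fold here, yet both were far below YPG (-5.48 ± 0.23). *NOP58*, which holds guide RNAs for rRNA methylation, was lower with NaCl, at -4.94 ± 0.23. Of 74 mitochondrial ribosomal protein genes, 44 were higher with NaCl (59.5%) and 10 lower (13.5%), against 39.6% and 41.6% of all genes, and 20 were not called. Their median was 0.35, and 52 of the 74 were alike, against 36.9% of all genes. The count of lower genes was 5 without YPG replicate 2.

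Promoters of ribosome biogenesis genes are known for the PAC motif, searched as GCGATGAG on both strands. PAC occurred in 47 of the 91 promoters (51.6%), against 5.2% of all promoters. The window below has PAC in capitals, with the letters read on the opposite strand.
*NSR1*, chrVII:807810-807869, minus strand: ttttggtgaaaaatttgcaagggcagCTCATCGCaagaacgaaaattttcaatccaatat
*NSR1* (nucleolin, of the small subunit pathway) had a difference of -2.56 log2 between SC with NaCl and YPG.

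**Figure D4:**
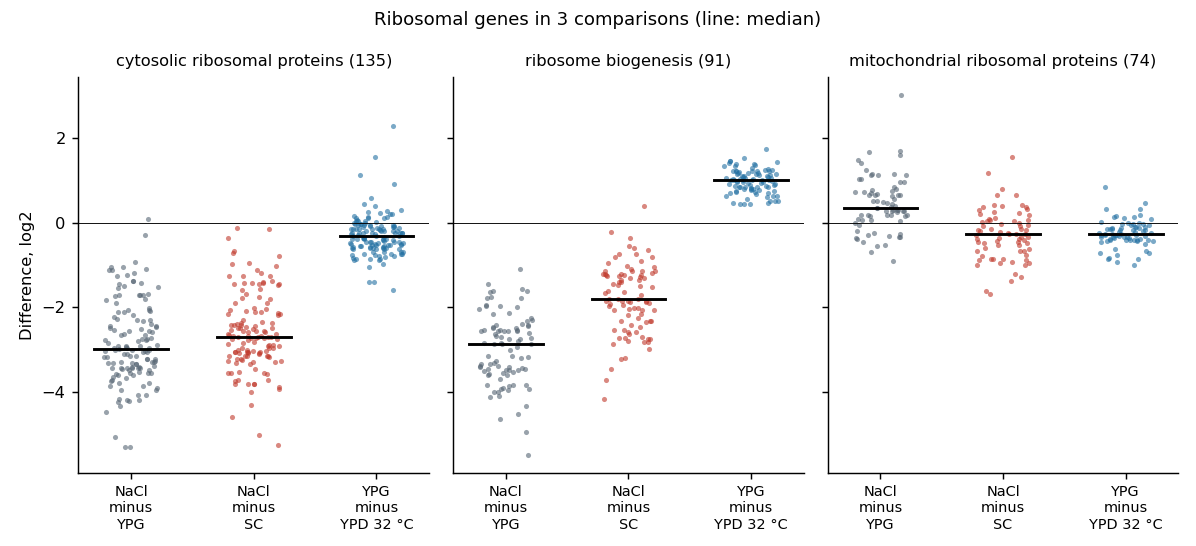
Difference in log2 units of each gene of 3 ribosomal lists (1 point per gene, line at the median) for SC with NaCl minus YPG, SC with NaCl minus SC, and YPG minus YPD at 32°C. Ribosome biogenesis lies below 0 with NaCl, apart from *REA1*, and above 0 with glycerol for all 91 genes, while mitochondrial ribosomal proteins stay near 0, with a median of 0.35 in the direct comparison.

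Nutrient genes separated the pair partly along the step between the base media. On the log2 scale the difference between SC with NaCl and YPG is the sum of NaCl minus SC, SC minus YPD and YPD minus YPG, and these steps can be read side by side. *PHO84* (the high-affinity phosphate transporter) had 666 and 891 counts with NaCl, 23800 and 22366 in YPG, 1042 and 966 in SC and 34324 and 34918 in YPD. The difference between salt and glycerol (-4.90 ± 0.11) was near that between SC and YPD (-5.11), while SC with NaCl minus SC was -0.38 and YPG minus YPD was -0.59. *PHO89* (the sodium phosphate symporter) was likewise lower with NaCl than in YPG, at -2.12 ± 0.12, and lower in SC than in YPD, at -5.78, but it was 2.92 higher in SC with NaCl than in SC. Of the 20 genes of the phosphate list 6 were higher (30%), 10 lower (50%) and 4 not called, against 39.6% and 41.6% of all genes, and the acid phosphatase *PHO5* was not called, with 886 and 1083 counts with NaCl and 880 and 874 in YPG. Without NaCl replicate 1, *PHO5* was called at 0.30 log2 higher.

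All 12 zinc genes were higher in SC than in YPD and 11 of them were lower in SC with NaCl than in SC. Over all genes these shares were 21.4% and 46.7%. *ZPS1* (a wall protein of zinc-starved cells) had 255 and 271 counts with NaCl, 218 and 234 in YPG, 49133 and 47858 in SC and 236 and 232 in YPD, so that the pair was alike (0.22 ± 0.11, adjusted p = 0.096) although both lay far below SC. *ZRT1* (the high-affinity zinc transporter) kept part of its level, with 11182 and 15211 counts with NaCl, 958 and 794 in YPG, 89348 and 89200 in SC and 1980 and 1830 in YPD, and stayed 3.90 ± 0.13 log2 higher with NaCl. In the pair, 7 of the 12 were higher with NaCl (58.3%) and 4 lower (33.3%), against 39.6% and 41.6% of all genes, and *ZPS1* was not called. The palindromic zinc response element, searched on both strands, occurred in 3 of the 12 promoters (25%), against 0.167% of all, and the match of *ZRT1* is in capitals.
*ZRT1*, chrVII:20749-20808, plus strand: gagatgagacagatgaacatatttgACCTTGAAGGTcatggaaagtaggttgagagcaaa

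Iron uptake genes were mostly higher with salt. *FIT3* (a wall mannoprotein that holds iron-siderophores) had 142701 and 120489 counts with NaCl, 1812 and 2273 in YPG, 9888 and 13155 in SC and 184 and 161 in YPD. Its rise was of like size against each glucose culture, 3.52 ± 0.14 and 3.55 ± 0.14, and the test of the difference between these changes did not pass (adjusted p = 0.90), so that the 6.01 ± 0.14 log2 between salt and glycerol was near the 6.04 between SC and YPD. Of 26 iron genes, 18 were higher with NaCl (69.2%) and 4 lower (15.4%), against 39.6% and 41.6% of all genes, and 4 were not called. The siderophore transporter *SIT1* was alike, with 7894 and 9757 counts with NaCl and 9132 and 8770 in YPG, while the high-affinity permease *FTR1* was lower with NaCl, at -1.61 ± 0.16.

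Most genes of the lysine, arginine and branched-chain lists were lower with salt. All but *LYS5* of the 10 genes in the lysine list were lower with NaCl than in YPG (90%, against 41.6% of all genes). Against the 2 glucose cultures, 7 of the 10 moved in opposite directions. Of all genes, 11.3% and 11.5% did so, higher and lower with NaCl. *LYS9* (saccharopine dehydrogenase) had 585 and 670 counts with NaCl, 10026 and 10892 in YPG, 32047 and 40897 in SC and 2342 and 2574 in YPD. In the arginine list 8 of 10 were lower (80%, against 41.6% of all genes) and *CPA1* alone was higher, by 1.73 ± 0.08. The arginine list as a whole nevertheless took 0.281% and 0.29% of the counts with NaCl and 0.233% and 0.214% in YPG. In the branched-chain list 11 of 13 were lower (84.6%, against 41.6% of all genes). Sulfur went the other way, with 16 of 25 genes higher (64%) and 3 lower (12%), against 39.6% and 41.6% of all genes. *MUP3* (a low-affinity methionine permease) had 2766 and 2735 counts with NaCl, 138 and 117 in YPG, 418 and 333 in SC and 908 and 799 in YPD, and rose with NaCl and fell with glycerol. Of 24 thiamine genes 17 were higher with NaCl (70.8%) and 3 were lower (12.5%), against the same shares of all genes.

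**Figure D5:**
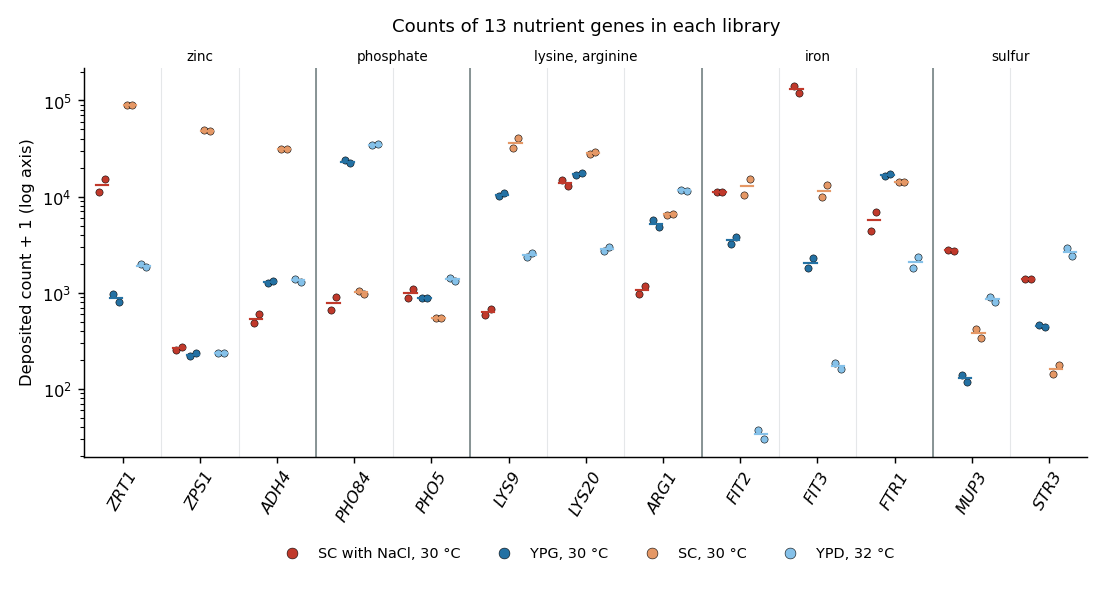
Counts plus 1 of 13 nutrient genes on a log axis, 2 points per environment with their mean as a line, in the order SC with NaCl, YPG, SC and YPD at 32°C. *ZPS1* stands between 218 and 271 in SC with NaCl, YPG and YPD, and at 49133 and 47858 in SC, and *PHO84* separates the SC cultures from the YP cultures.

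Of 36 genes of nitrogen breakdown and transport, 18 rose against glucose in both environments, 2 fell in both and 12 moved in opposite directions. Of all genes, 11.6% rose in both and 19.4% fell in both. Opposite directions were taken by 11.3% (higher with NaCl) and 11.5% (lower with NaCl) of all genes. In the pair 23 of the 36 were lower (63.9%) and 11 higher (30.6%) with NaCl, against 41.6% and 39.6% of all genes. *DUR12* (urea amidolyase) had 1287 and 1421 counts with NaCl, 30410 and 28679 in YPG, 1796 and 2308 in SC and 1099 and 1242 in YPD, so that it fell with NaCl and rose with glycerol. The general amino acid permease *GAP1* was lower with NaCl, at -3.68 ± 0.15. *ARO10* (the decarboxylase of aromatic amino acid breakdown) had 272 and 344 counts with NaCl, 26129 and 28271 in YPG, 1316 and 2015 in SC and 6872 and 5798 in YPD (-6.47 ± 0.17). *UGA4* (the GABA permease) was an exception, at 4.40 ± 0.15 higher with NaCl.

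Wall and sterol genes were mostly lower with salt. Of 42 wall genes 28 were lower with NaCl (66.7%) and 12 higher (28.6%), against 41.6% and 39.6% of all genes. The wall list as a whole was not lower with NaCl. It took 4.29% and 3.65% of the counts with NaCl, 3.68% and 3.36% in YPG, 2.12% and 2.08% in SC and 1.69% and 1.71% in YPD. *CIS3*, a mannoprotein linked to glucan, had 155 and 152 counts with NaCl, 14156 and 14952 in YPG, 7967 and 7655 in SC and 11188 and 11547 in YPD (-6.56 ± 0.07). The glucan synthase *FKS1* had 1316 and 1427 counts with NaCl and 34336 and 30314 in YPG, whereas its stress-induced partner *GSC2* had 21825 and 22916 with NaCl and 8860 and 8271 in YPG. The glucanosyltransferase *GAS1* was lower, at -4.93 ± 0.13. *SED1*, the main wall protein of resting cells, was high in both and alike, with 154254 and 123009 counts with NaCl and 86878 and 79013 in YPG. Of 27 ergosterol genes 20 were lower with NaCl (74.1%) and 5 higher (18.5%), against 41.6% and 39.6% of all genes. Among the lower ones, *ERG11* (the sterol demethylase) was at -4.06 ± 0.12. Of 16 genes of inositol and phospholipid synthesis 11 were lower (68.8%) and 2 higher (12.5%), against the same shares of all genes, and 3 were not called.

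Most genes of the meiosis list were higher with salt, although sporulation was not part of the design. *SPS100*, a spore wall gene, had 42008 and 39101 counts with NaCl, 1811 and 1795 in YPG, 107 and 111 in SC and 105 and 97.5 in YPD, and was 4.49 ± 0.17 higher with NaCl than in YPG. Of 22 meiosis and sporulation genes 17 were higher with NaCl (77.3%) and 1 was lower (4.55%), against 39.6% and 41.6% of all genes. The other 4, among them the master switch *NDT80* with 380 and 471 counts with NaCl and 497 and 434 in YPG, were not called. The mitotic cyclin *CLB2*, named after its values were seen, had 17.5 and 19.6 counts with NaCl, 984 and 1023 in YPG, 981 and 940 in SC and 793 and 860 in YPD.

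The genes that passed in opposite directions with the largest smaller change were *AIM17*, *YKR075C*, *MUP3*, *OPT1*, *GAL7* and *STR3* among annotated genes higher with NaCl. *AIM17* had 12457 and 10888 counts with NaCl, 236 and 202 in YPG, 1245 and 1402 in SC and 2472 and 2351 in YPD. The glutathione and peptide transporter *OPT1* was 3.30 ± 0.12 log2 higher with NaCl than in YPG. Those lower with NaCl included *CTP1* (the mitochondrial citrate carrier), *ARO10* and *LYS9*, as well as *GIC2*, *EXG1*, *ASH1*, *RPL7B*, *LYS4* and *YHB1*. *CTP1* had 486 and 559 counts with NaCl, 4299 and 5005 in YPG, 4387 and 5202 in SC and 720 and 694 in YPD, so that its level in YPG met that of plain SC.

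Several of the most extreme identifiers overlap with another identifier. *HYP2* (translation factor eIF5A) ranked first among the rises, with 5008 and 4576 counts with NaCl and less than 1 count in each of the other 6 libraries used here. The overlapping identifier YEL034C-A had 11403 and 8930 counts with NaCl and 27676 and 26411 in YPG, and the split of reads between the overlapping pair was not tested. *DID2*, which also has an overlapping identifier, was likewise below 1 count in those 6 libraries, and *FMP49* was so in 5 of them, with 2.82 counts in the other. Among the 10 largest falls, 7 identifiers were outside the annotation of the reference. *SPG1*, a stationary phase gene with 14904 and 10924 counts with NaCl and 12.1 and 4.53 in YPG, and *PHM7*, with 31018 and 27581 with NaCl and 173 and 142 in YPG, were large rises of annotated genes with counts in all 4 libraries.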

How the data were processed

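RNA of BY4743 cultures, 2 per environment, was sequenced, aligned to build R64 with Hisat2 and quantified by the authors with Cufflinks tools (cuffquant and cuffnorm). The deposited counts are a signal that cuffnorm estimated and scaled to a common library total, so that they are not whole reads and no count model was run. The FPKM values deposited by the authors, adjusted for gene length and depth, were used for levels per length and as an alternative. The labels call the libraries non-paired, whereas the methods describe paired reads.

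From these, log2(count + 1) of all 12 libraries was fitted in 1 model with limma 3.58.1 in R 4.3.3, with the environment as the term, a mean-variance trend and 6 residual degrees of freedom, over the 6113 identifiers with a mean of at least 10 in the 4 libraries. P-values were adjusted by Benjamini-Hochberg over these, with a threshold of 0.05. The spread behind them is that between the 2 cultures of an environment, pooled for each gene over all 6 environments and moderated across genes. The NaCl cultures were the most variable, with a weight of 0.28 where weights were fitted. The intervals and p-values of comparisons with NaCl may therefore be too narrow and too small. Genes named are members of the lists, the 10 largest differences each way without overlap of libraries, the 10 largest shared and opposite changes by the smaller change, those alike, and the 10 highest counts. Some items these rules name are not reported here. The members and lists were chosen with earlier results of these data known. Promoters, of 600 bases, came from the R64 reference of RefSeq, and 6088 of the 7127 identifiers matched its annotation. Near-identical and overlapping genes may share reads, and promoter windows may reach into neighbouring genes. Tables and figures were made with Python 3.11.15, pandas 2.3.3 and matplotlib 3.10.9, and the fit was tested on simulated data.

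Alternatives were a pseudocount of 5, other filters, median-of-ratios scaling, FPKM, no trend, only the environments compared, a replicate block, a stricter threshold and margin, YPD at 24°C in place of 32°C, and leaving out each library. Library weights per environment were added after seeing the data.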

Additional observations from a re-analysis of the deposited data

How the results depend on the processing

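Between SC with NaCl and YPG, the count of called genes was 4960 and ran between 4530 and 5109 over the other settings and between 4706 and 4964 when 1 library was left out. Shared rises ran between 685 and 1015 and shared falls between 861 and 1206 over the settings, and with 1 library left out between 590 and 768 and between 999 and 1346. Genes alike within 2-fold numbered 2256, and 1073 were alike within a 1.5-fold margin. Genes in opposite directions that were higher with NaCl numbered 688, and 428 with YPD at 24°C in place of 32°C. The cause was not tested. The other summary counts stayed within 1.5 times of the main ones under the settings run. Of the recomputed list counts, 1111 did likewise and 11 moved by more, for mitochondrial ribosomal proteins, inositol and meiosis.

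Replicate numbers did not pair the samples: the deviations of same-numbered NaCl and YPG libraries correlated at -0.085. A fit with a replicate block called 4998 genes, and 4955 of these were also called without the block. With library weights, added after seeing the data because the NaCl replicates differed most, 4530 were called, all of them also called without weights. Genes alike within 2-fold numbered 1932 with these weights, against 2256 without. Median-of-ratios scaling moved the median of all genes to 0.03, against -0.03 as deposited.

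Among the named genes 13 values changed sign, all of them of genes that were not called. Under median-of-ratios scaling *SDH1* was 0.04 and *SIT1* 0.03. The others came from leaving out 1 library, over which *AQY1* ran between -0.19 and 0.27, *GPP1* between -0.03 and 0.45, *ATP3* between -0.02 and 0.04, *COX5A* between -0.04 and 0.09, *PIG1* between -0.28 and 0.04, *RPS25A* between -0.06 and 0.22, *SIT1* between -0.18 and 0.12 and *NDT80* between -0.29 and 0.02. The calls of *SFC1*, *NRG1*, *NCA3*, *CAR2*, *ADE13* and *ENA2* between the pair were lost in at least 1 setting. With 2 cultures per environment, differences under the median half-width of 0.26 log2 could mostly not be resolved.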
